A study of Sesuvium portulacastrum with 18 samples.

Results

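In roots of Sesuvium portulacastrum, a salt-tolerant plant of saline shores (a halophyte), 33 of 87369 measured transcripts were near their starting level after 8 h of salt and higher after 24 h. These transcripts were chosen by their measured levels in the root libraries. Levels are the deposited normalized CPM, that is, CPM (a transcript's estimated counts relative to the library's total) divided by 1 scaling factor per library. A transcript entered the group when its mean at 24 h was at least 5 and at least 2 times both the 0 h mean and the 8 h mean. In addition the 8 h mean lay between 2/3 and 1.5 times the 0 h mean, and each 24 h value lay above every 0 h and 8 h value. All comparisons among the 3 times were therefore read when the transcripts were chosen, and their levels are given as a description, without a test.

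Seedlings raised from stem cuttings in liquid culture were 15 days old when the medium was changed. The 0 h plants received control medium and were harvested at once, and the 8 h and 24 h plants received medium with 250 mM NaCl and were harvested 8 h or 24 h later. Each time had 3 root libraries, which the series describes as biological replicates, and the labels do not say how many plants went into a library. No plants kept in control medium for 8 h or 24 h were part of the design, so salt, time since the change of medium and hour of harvest cannot be told apart. In whole roots, more cells that hold a transcript and more of it per cell cannot be told apart either.

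Salt acts on a root through water first, because the saline medium lowers the water available to it, and then through the sodium and chloride that enter its cells. From work mostly done in Arabidopsis, plants are known to answer with sodium export across the plasma membrane by the antiporter SOS1, storage in the vacuole by NHX antiporters, and synthesis of compatible solutes such as proline. Halophytes are known for holding sodium in vacuoles while growth continues. The deposited tables name transcripts by an ID alone, so no transcript is assigned to these functions here, and the tissue label was not checked against marker genes. A suffix such as .p1 or .p2 ends each ID, and IDs with the same number and different suffixes occur side by side.

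The root libraries held between 8773677 and 13861135 estimated counts. Of the 87369 transcripts, 17495 had a 24 h mean of at least 5, and the 33 make up 0.189% of these. The rise came next: 265 of the 17495 had a 24 h mean at least 2 times the 0 h mean, and 67 of these were also at least 2 times the 8 h mean. At 8 h, 18 of the 67 were already more than 1.5 times the 0 h mean and 10 were under 2/3 of it, which left 39. Another 6 of the 39 had a 24 h value that did not lie above all earlier values.

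The choice required a 24 h mean of at least 5, and a few members held much of the group's summed level. The most abundant ranked 2186 among all root transcripts by 24 h mean and the least abundant 17332. The median 24 h mean was 13.8 normalized CPM, with a range from 5.12 to 90.0. Of the 33 members, 6 averaged 50 or more at 24 h, 17 between 10 and 50, and 10 under 10. The 5 most abundant made up 46.7% of the summed 24 h level and the 10 most abundant 66.9%. The rises were modest in size: among the 32 members with counts at 0 h, the ratio of 24 h to 0 h means had a median of 2.55, with 26 under 3, 4 between 3 and 4, and 2 above 4. Among the same 32, the ratio of 24 h to 8 h means had a median of 2.39 and reached 5.19.

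**Figure D1:**
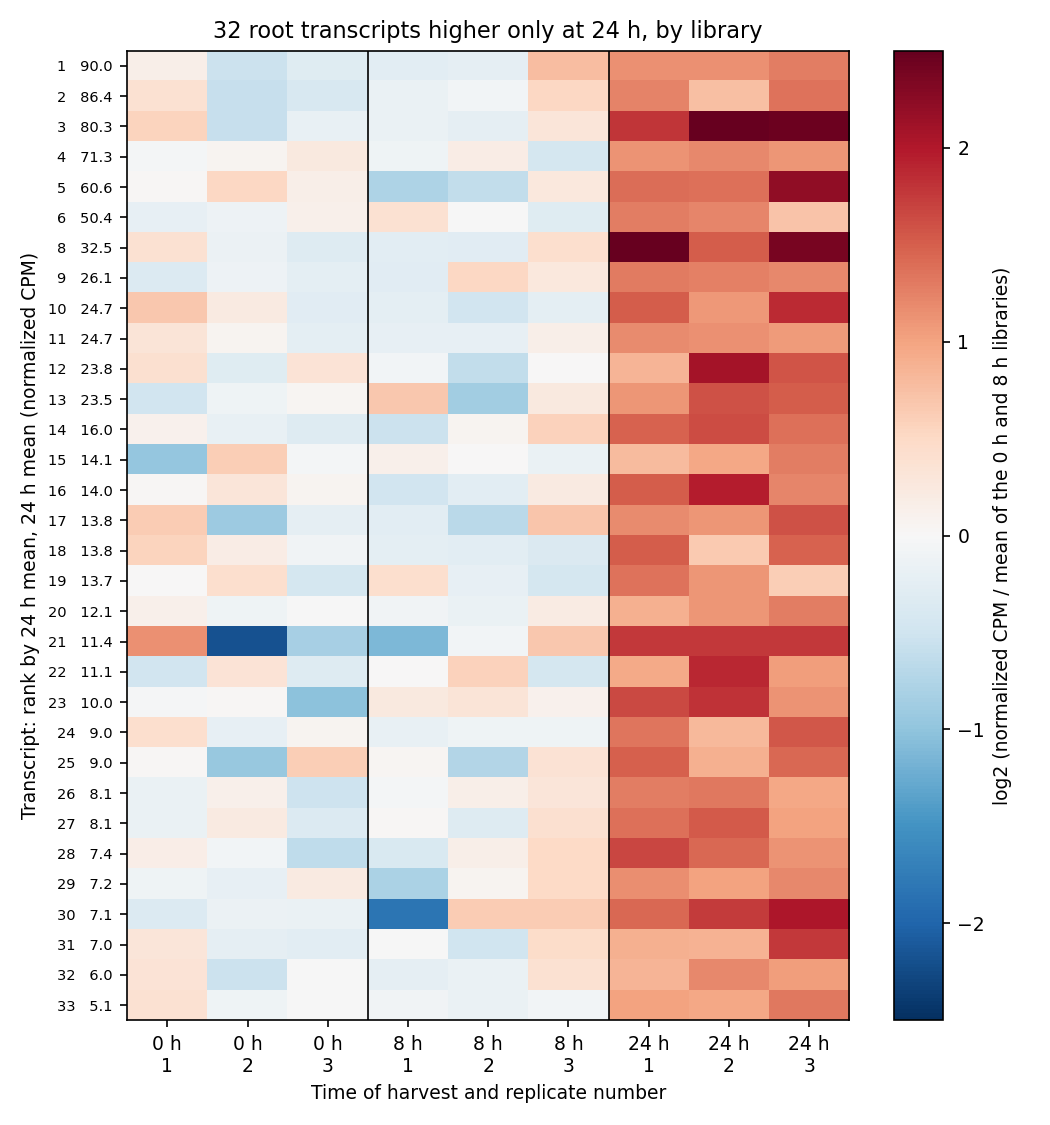
Level of each of the 32 members with counts in all 9 root libraries (rows, ordered by 24 h mean, which stands beside the rank in normalized CPM), as log2 of the value over the mean of the 0 h and 8 h libraries. Columns are the 3 libraries of each time, and the 24 h columns are higher than the others in every row, which the choice of members required.

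Among the 32 members with counts at 0 h, the steepest rise was that of R_Transcript_51446.p1, the third most abundant member. It measured 23.0, 10.4 and 13.6 normalized CPM in the 0 h libraries, 13.9, 13.3 and 19.1 in the 8 h libraries and 53.9, 102 and 85.0 in the 24 h libraries. The lowest 24 h library was 2.34 times the highest earlier one, the widest gap among these 32. The means were 80.3 ± 24.4 at 24 h against 15.7 ± 6.54 at 0 h and 15.5 ± 3.21 at 8 h (SD, n = 3 each). In the edgeR model the log2 fold change was 2.34 (SE 0.28) for 24 h against 0 h and 2.37 (SE 0.28) for 24 h against 8 h. At 8 h it stood where it had been at 0 h, with a log2 fold change of -0.03 (SE 0.29).

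R_Transcript_163085.p1 followed the same course at a lower level. It measured 9.09, 6.33 and 5.62 at 0 h, 5.79, 5.77 and 9.35 at 8 h, and 41.1, 20.1 and 36.2 at 24 h. The 24 h libraries differed among themselves by about as much as in the first transcript, and replicate 2 was the lowest of the 3 here, where it was the highest there. The log2 fold change was 2.20 (SE 0.28) for 24 h against 0 h and 2.21 (SE 0.28) for 24 h against 8 h. These were the 2 of the 32 members with counts at 0 h whose 24 h mean was over 4 times the 0 h mean.

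Among the 32, next by the ratio of 24 h to 8 h came a pair of members that had dipped at 8 h. R_Transcript_30031.p1 measured 18.8, 26.5 and 20.5 at 0 h, 10.8, 12.0 and 22.2 at 8 h, and 48.3, 47.9 and 85.5 at 24 h. Its 24 h mean was 4.04 times the 8 h mean and 2.76 times the 0 h mean, and replicate 3 was well above the other two. R_Transcript_24152.p1 measured 13.8, 10.02 and 7.10 at 0 h, 7.21, 6.16 and 7.30 at 8 h, and 24.6, 18.3 and 31.4 at 24 h. Its 8 h mean was 0.669 times the 0 h mean, the value nearest the lower limit of the choice, so part of its 24 h to 8 h ratio of 3.59 is the dip. The log2 fold changes at 8 h against 0 h were -0.53 (SE 0.29) for the first and -0.59 (SE 0.25) for the second.

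The 2 most abundant members had uneven earlier libraries. The first measured 43.8, 27.2 and 31.9 at 0 h, 32.9, 33.8 and 67.5 at 8 h, and 87.0, 86.9 and 96.1 at 24 h. The second measured 50.9, 26.5 and 29.8 at 0 h, 34.8, 37.5 and 56.0 at 8 h, and 92.6, 66.3 and 100.4 at 24 h. In both, replicate 1 was the highest at 0 h and replicate 3 the highest at 8 h. Their 24 h means were 2.62 and 2.42 times the 0 h means, and 2.01 and 2.02 times the 8 h means, close to the limit of 2.

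Even levels at 24 h marked the fourth and the ninth member by abundance. The fourth measured 31.2, 33.9 and 38.5 at 0 h, 29.8, 36.7 and 23.8 at 8 h, and 70.3, 74.5 and 69.3 at 24 h, a 24 h spread of 3.85% (SD over mean). The ninth measured 8.59, 9.91 and 9.18 at 0 h, 8.98, 15.5 and 13.1 at 8 h, and 26.9, 26.2 and 25.1 at 24 h, a spread of 3.61%. In the sixth, 24 h replicate 3 was lower than its partners: it measured 20.6, 21.5 and 25.9 at 0 h, 31.0, 23.6 and 19.3 at 8 h, and 57.4, 54.9 and 38.9 at 24 h. The smallest 24 h spread of all was 0.441%, in the member of rank 21, at 11.3, 11.4 and 11.3. That member was the most uneven at 0 h, at 7.36, 0.738 and 1.87, with 1.54, 3.17 and 5.31 at 8 h.

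The remaining members, of ranks 11 to 20 and 22 to 33, lay between 5.12 and 24.7 normalized CPM at 24 h. Among them the member of rank 12 had the widest 24 h spread, 40.6%, at 14.3, 33.6 and 23.4. Rank 30 had the largest ratio to 0 h, at 3.90, with 5.67, 7.05 and 8.50 at 24 h against 1.66, 1.90 and 1.87 at 0 h. Its 8 h libraries were 0.591, 3.27 and 3.26, so that replicate 1 stood under the others at that time. The rise of rank 18 was the one closest to overlap: its lowest 24 h library, 9.03, was 1.07 times its highest earlier one, 8.44.

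Ranks 11 and 16 show members at these lower levels. Rank 11 measured 14.1, 11.8 and 9.57 at 0 h, 9.81, 9.81 and 12.5 at 8 h, and 25.6, 24.7 and 23.7 at 24 h. Rank 16 measured 4.69, 5.69 and 4.84 at 0 h, 3.31, 3.85 and 5.39 at 8 h, and 13.2, 17.97 and 10.7 at 24 h. In both, the 24 h libraries stood clear of the others by at least 1.5 times. Rank 23 had the highest 8 h to 0 h ratio of the group, 1.41, with 3.32, 3.48 and 1.68 at 0 h, 4.02, 4.23 and 3.69 at 8 h, and 10.7, 11.9 and 7.41 at 24 h. Rank 13 was uneven at 8 h, with 6.28, 8.12 and 9.08 at 0 h, 14.1, 4.81 and 10.5 at 8 h, and 19.0, 26.4 and 25.0 at 24 h. All 3 of its 24 h libraries still lay above the highest 8 h library. The least abundant member, rank 33, measured 3.10, 2.21 and 2.37 at 0 h, 2.25, 2.12 and 2.27 at 8 h, and 4.79, 4.67 and 5.91 at 24 h. Rank 14 had a 24 h mean of 16 ± 1.44 against 5.21 ± 0.827 at 0 h and 6.12 ± 2.31 at 8 h (SD, n = 3 each).

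Over the group, the 8 h mean was above the 0 h mean in 17 members and below it in 15, and the median ratio of 8 h to 0 h was 1.01. The lowest 24 h value was at least 1.5 times the highest earlier value in 16 members and at least 2 times it in 2. The spread at 24 h (SD over mean) had a median of 19.9%, with 7 members under 10% and 8 at 30% or more. Among all 17495 transcripts with a 24 h mean of at least 5, whose median level of 20.6 was higher than the members', the median spread was 10.9%. At the edges of the choice, the smallest 24 h mean inside was 5.12 and the largest outside 4.49. The smallest ratio over the higher earlier mean was 2.000 inside and 1.995 outside, and 1146 transcripts failed on that ratio alone. The ratio of 8 h to 0 h ran from 0.669 to 1.41 inside, with 0.664 and 1.52 as the nearest values outside, and the lowest 24 h value over the highest earlier one was 1.07 inside and 0.985 outside.

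**Figure D2:**
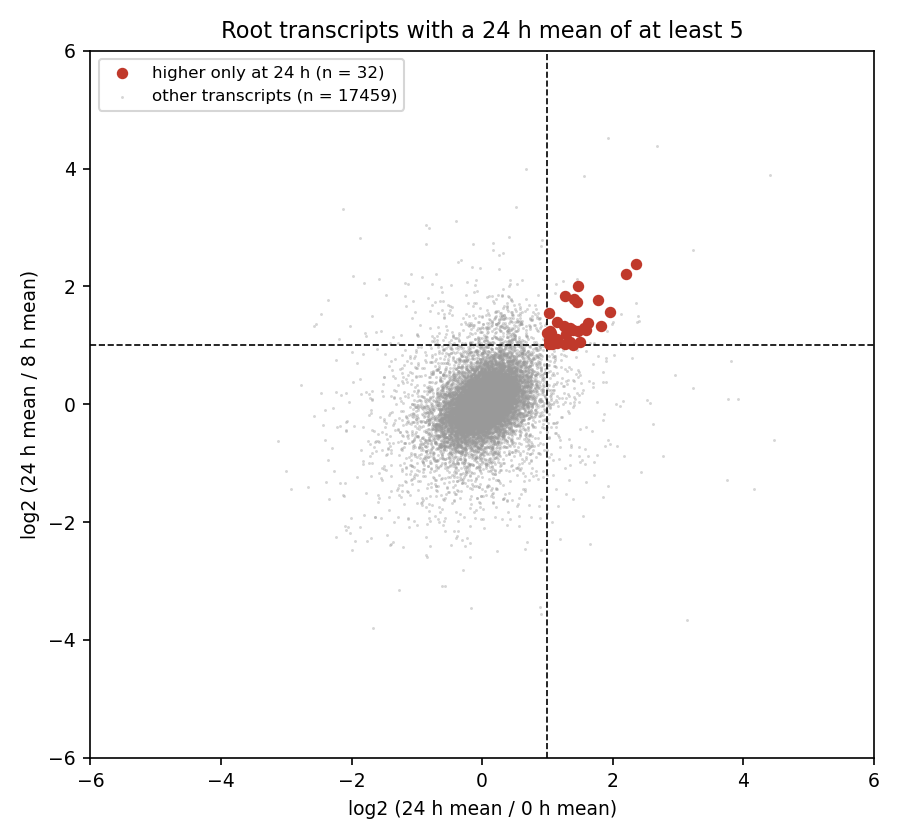
Root transcripts with a 24 h mean of at least 5 and counts at 0 h and 8 h, by log2 ratio of 24 h to 0 h means (horizontal) and of 24 h to 8 h means (vertical), with the 32 members in red and 17459 others in grey, of which 3 lie outside the axes. Dashed lines mark a ratio of 2, and the members sit in the corner above both, most of them close to it.

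In the count model, edgeR's quasi-likelihood test over 34721 root transcripts with enough counts, 32 of the 33 members could be tested. Against 0 h, 28 of the 32 were called higher at 24 h at a Benjamini-Hochberg adjusted p under 0.05, where 2.89% of all tested transcripts were. Against 8 h, 31 of the 32 were called higher, where 5.34% of all were. Without 24 h replicate 1 the counts were 22 and 23 of 32 members, and 473 and 1194 of all 36446 transcripts tested. Without 8 h replicate 2 they were 30 and 21 of 33 members, and 883 and 858 of all 36588 tested. At 8 h against 0 h none of the 32 was called by edgeR or by DESeq2, with 2 at an unadjusted p under 0.05, where edgeR called 13.5% of all in either direction. The choice of members read these same contrasts, so nothing follows from the counts. The member of rank 21, with its uneven earlier libraries, was the 1 called in neither 24 h comparison.

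The members' share of the root's counts was higher at 24 h, as the choice required. They held 0.0851 ± 0.0044% of all counts at 24 h, against 0.0298 ± 0.00469% at 0 h and 0.0308 ± 0.00544% at 8 h (SD, n = 3 libraries each). Their summed level was 342, 280.0 and 284 normalized CPM in the 0 h libraries, 281, 282 and 364 in the 8 h libraries and 807, 847 and 845 in the 24 h libraries. The highest earlier sums belonged to 0 h replicate 1 and 8 h replicate 3. Those were also the deepest libraries, with 13506561 and 13861135 counts, and the part of depth in this was not tested. In 16 of 33 members (48.5%) both of these libraries were the highest of their time, against 25.1% of the 17495 transcripts at the same 24 h level.

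Because the choice read all 9 libraries, it was repeated with 1 library left out each time, and the library left out was then examined. Choices made on 8 libraries held between 31 and 48 transcripts. When 24 h replicate 1 was left out, 34 of 38 chosen transcripts had it above every earlier value, against 16.8% of all transcripts at that level. For 24 h replicate 2 the count was 36 of 42, against 21.4%, and for 24 h replicate 3 it was 36 of 46, against 16%. Among the 36 of 46 is the member of rank 7, described below, with 1 count in 24 h replicate 3 and 0 before. The earlier values in these counts were required to be low by the choice, while those behind the shares of all transcripts were not. The counts and shares are therefore not like for like, and no support for a rise is drawn from them. In the chosen transcripts the rise was somewhat smaller in the library left out. The median ratio over the higher earlier mean was 2.04, 1.94 and 1.86 in replicates 1, 2 and 3 when left out. It was 2.22, 2.21 and 2.22 in the 2 libraries that were read. At least a 2-fold rise was seen in the library left out for 19 of 38, 18 of 42 and 17 of 46. The earlier libraries in these ratios were read by the choice and may be low for that reason.

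The same was done for the earlier times, where the library left out should lie under every 24 h value. For 0 h it did so in 37 of 42, 36 of 37 and 33 of 34 transcripts with replicates 1, 2 and 3 left out, against 34.8%, 38.3% and 36.4% of all transcripts at that level. For 8 h it did so in 34 of 39, 31 of 31 and 43 of 48, against 37.6%, 38.4% and 33.9%. The 24 h values in these counts were read by the choice and may be high for that reason. No such choice lies behind the shares of all transcripts, so the comparison is not like for like. All 33 members were chosen in at least 4 of the 9 repeats, 9 of them in every one, and 11 in 8. Those in every repeat include the member of rank 7, described below, which had 508, 603 and 1 counts at 24 h. The 2 most abundant members were among the least stable, chosen in 5 and 4 of the 9. In all, 108 transcripts were chosen in at least 1 repeat, so the border of the group moved with single libraries.

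**Figure D3:**
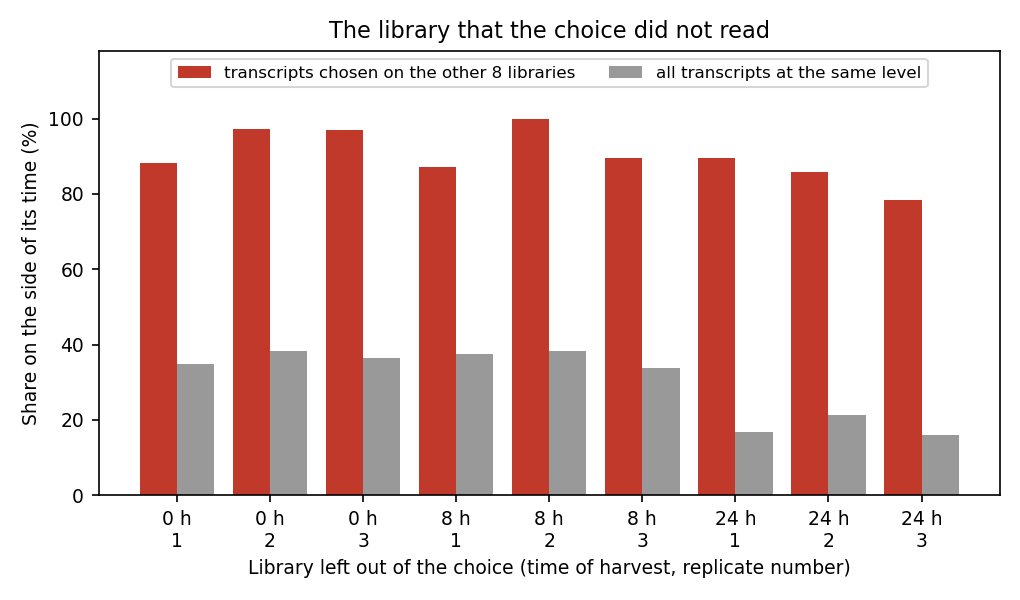
For each root library left out of the choice, the share (%) of transcripts chosen on the other 8 that had it on the side of its time (red) and the same share of all transcripts at that level (grey). For a 24 h library the side is above every earlier value, and for an earlier library it is below every 24 h value. The values that the library is set against were read by the choice. The red bars run from 78.3% to 100% and the grey bars from 16% to 38.4%.

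A different pattern stood behind the member of rank 7, R_Transcript_107559.p5, singled out after its values were seen. It had 0 counts in all 6 libraries at 0 h and 8 h, 508 and 603 counts in 24 h replicates 1 and 2, and 1 count in 24 h replicate 3. In normalized CPM these were 44.3, 59.9 and 0.0833 at 24 h, so it met the choice only because any count lies above 0. Summed over the 24 h libraries it stood at 33.9 CPM, nearly all of it from replicates 1 and 2, where 3 counts over the 0 h libraries would give 0.0886 CPM. The 1 count of replicate 3 lay under the 0.265 CPM that 3 counts would give there. No rise was thus measured in replicate 3, and no fold is given for the 24 h group. For counting error, 0 counts in 1 library allow up to 3 counts, between 0.216 and 0.342 CPM. It was the 1 member left out of the count model, since its counts sat in 2 libraries.

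The other 4 IDs with that number showed the same 2 libraries. With suffix .p1 there were 2174 and 2209 counts in 24 h replicates 1 and 2, with .p2 there were 1779 and 1857, with .p3 2000 and 2051, and with .p4 658 and 769. In 24 h replicate 3 these 4 had 2, 0, 5 and 1 counts, and over the 6 earlier libraries together 4, 1, 3 and 2. Together the 5 IDs took 7119 counts (0.0652%) of replicate 1 and 7489 (0.0710%) of replicate 2, against 9 of replicate 3. The other 4 are not members, because single counts at 0 h or 8 h put the 8 h to 0 h ratio outside its limits or a 24 h value not above an earlier one. Among all root transcripts, 5 had a level of at least 5 in both of these libraries and at most 3 counts in each of the other 7: 4 of the 5 IDs and R_Transcript_394449.p1, with 227 and 250 counts and 0 elsewhere. Of the 8 other pairs of libraries from 1 time, 1 pair gave 1 such transcript and the rest gave none. Without R_Transcript_107559.p5 the members' share of counts at 24 h was 0.0816 ± 0.00736% (SD, n = 3).

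**Figure D4:**
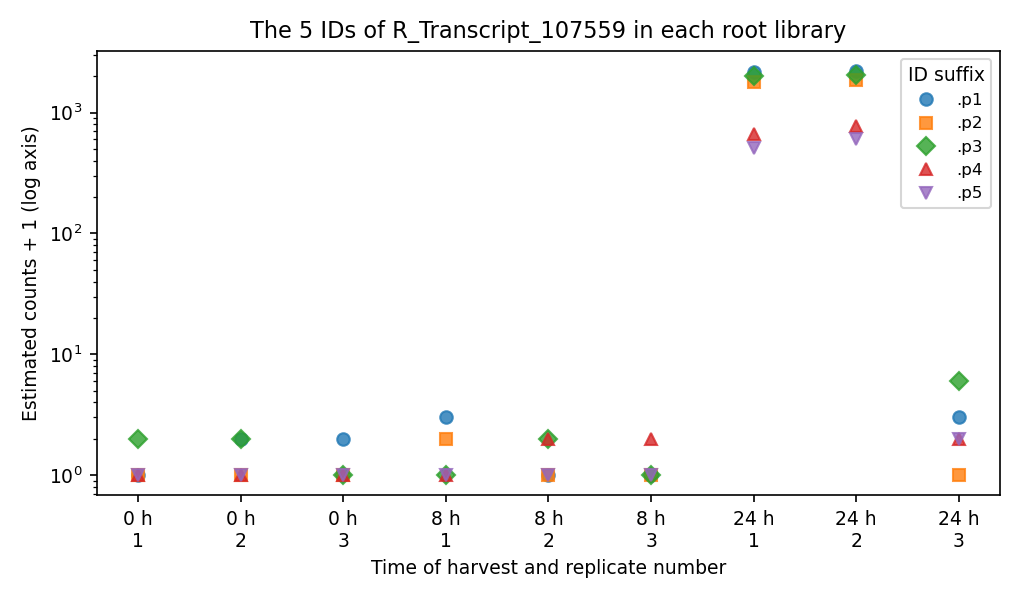
Estimated counts plus 1, on a log axis, of the 5 IDs of R_Transcript_107559 in each root library, by time of harvest and replicate number. All 5 lie at 508 counts or more in 24 h replicates 1 and 2 and at 5 or fewer in the other 7 libraries.

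The choice did not read the numbers in the IDs, and some members stood next to each other by number. In 4 of the 33 (12.1%) another member had the next number, and in 7 (21.2%) another lay within 5 numbers. The shares were 10.1% and 18.3% among 109 root transcripts lower only at 24 h, and 6.45% and 17.9% among 279 higher only at 8 h. Among the 17495 with a 24 h mean of at least 5, a much larger set, they were 17.8% and 59.3%. A larger set holds more neighbours for its size alone, so shares of sets of 33, 109 and 279 are not like for like. The 7 were a run of 3 (ranks 4, 20 and 24 by 24 h mean) and 2 pairs (ranks 6 and 19, and ranks 26 and 27). Within the run the 24 h means were 71.3, 12.1 and 9.02, and the ratios of 24 h to 0 h were 2.07, 2.14 and 2.20. The pair of ranks 26 and 27 was nearly equal in level, at 8.13 and 8.09 at 24 h, and the ratio of the first to the second ran from 0.947 to 1.52 over the 9 libraries. What a run of numbers means in this assembly is not stated in the labels, and IDs of nearly the same sequence may share reads. Neighbours are therefore not separate evidence of a rise.

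Transcripts that shared a member's number or had the next one, but were not members, were counted too. Of 15 such transcripts with a mean of at least 1 at some time and counts at every time, 12 had a 24 h mean above both earlier means, where 30.1% of all 34453 such transcripts did. At least a 1.5-fold rise over both was seen in 7 of the 15, where 2.81% of all had one. Without the number 107559 the counts were 10 and 5 of 13. Wider windows held smaller shares, with that number included and among transcripts with a 24 h mean of at least 1 and counts at both earlier times. Within 2 numbers, 14 of 21 were above both earlier means at 24 h, 8 of them at least 1.5-fold. Within 5 numbers these were 23 and 12 of 43, where 33.5% and 3.13% of all 30965 such transcripts were. Neighbours of transcripts chosen for other courses in root gave these counts. Around 109 that were lower only at 24 h, 16 of 25 neighbours were lower at 24 h than at both other times, where 33.4% of all were. In 9 of the 25 the 24 h mean was lower by at least 1.5-fold, against 5.64% of all. Around 279 that were higher only at 8 h, 65 of 79 were highest at 8 h, where 36.0% of all were. In 49 of the 79 the 8 h mean was at least 1.5 times both other means, against 7.01% of all.

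Set beside these groups, the late rise was the smallest. By like rules, 33 root transcripts were higher only at 24 h, 109 lower only at 24 h and 279 higher only at 8 h. The same rule in shoot, on a separate set of IDs, gave 51 of 89295 transcripts. The suffix .p1 was carried by 31 of the 33, or 93.9%, and by 93.2% of the root transcripts with a 24 h mean of at least 5. The median spread at the raised time was 19.9% in the late rise, 18.6% in the 8 h group and 15.0% in the shoot group, and none of these differences was tested. Each of the 24 h values of a member lay above all its earlier values by choice, which 7.71% of the 17495 transcripts at that level did.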

How the data were processed

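The members, lists and tests were chosen with earlier results of these data known. Root RNA of 9 libraries was measured. The authors deposited estimated counts per transcript as whole numbers, and rounding changed nothing. Tools listed in the submitters' processing notes, with no role given, are Trimmomatic, kallisto 0.45 and edgeR 3.40.1. The second table, a normalized signal (CPM) that the authors deposited, equals plain CPM divided by edgeR's TMM factor in 786321 of 786321 root values (relative tolerance 1e-06). The assembly and the use of strand in counting are not given in the sources used here, so a transcript and an overlapping antisense one may not be separated.

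Members were found on the normalized table. Counts were fitted in R 4.3.3 with edgeR 4.0.16 (filterByExpr, minimum count 10, which kept 34721 of 97620 transcripts, TMM, glmQLFit and glmQLFTest, 1 mean per time, two-sided, Benjamini-Hochberg over all tested). A standard error is the log2 fold change over the square root of F. DESeq2 1.42.0 was an alternative. The fit was also run on simulated data with larger changes than most members had, and its outcome is not used here. Shoot counts were not used. Members named by ID were the 2 with the largest ratio of 24 h to 0 h, then the next 2 by 24 h to 8 h, among 32 with at least 10 counts per library on average at 0 h and at 8 h. Columns left unmatched numbered 0. Depth intervals cover counting error only, and p-values set a difference between times against the spread between libraries.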

Additional observations from a re-analysis of the deposited data

How the results depend on the processing

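With a minimum of 3 times in place of 2 times both earlier means, 4 transcripts were chosen, and with 1.5 times 206, which hold all 33. A 24 h minimum of 1 gave 77 and a minimum of 10 gave 23. Plain CPM gave 41 and DESeq2's size factors 34, each sharing 32 with the 33. Leaving out 1 library gave 31 to 48. With 1 library left out, edgeR's adjusted p called 22 to 31 members higher against 0 h and 21 to 33 against 8 h. Of all 36151 to 36696 transcripts then tested, 455 to 1089 and 858 to 2073 were called higher. Under the other alternatives, which include DESeq2's own test, the numbers of members were 29 to 33 and 30 to 33. Of all transcripts tested there, 32728 to 87369, 887 to 1587 and 1905 to 2334 were called higher. Between 32 and 33 members could be tested in these runs. At 8 h against 0 h, 0 to 1 was called with 1 library left out, and 2 without the filter on low counts. Over all transcripts, 24 h against 0 h gave 2562 calls, 4353 without the filter, and 1297 to 2669 with 1 library left out (1297 without 24 h replicate 1, 1501 without 24 h replicate 3, 1558 without 0 h replicate 3). For 24 h against 8 h, 3975 calls became 2042 to 4300 (2042 without 8 h replicate 2, 2496 and 2637 without 24 h replicates 1 and 2), and for 8 h against 0 h 4673 became 3117 to 4854. The cause was not tested. The library left out of the choice lay on its side in 78.3% to 100% of chosen transcripts. In every alternative run, the 4 members named by ID with fold changes kept direction and call in both 24 h comparisons. They had been named for the largest ratios in these same libraries, so this was largely set by how they were named. Their 8 h against 0 h fold changes in those runs are not given here. Same-numbered libraries of different times correlated in their deviations from the time means at -0.108 to 0.230 across transcripts, over 0.1 in 3 of 9 pairs, so the numbers were not taken to pair them. With the replicate number as a block, 31 of 32 members were called higher against 0 h, 31 against 8 h and 0 at 8 h in either direction. Of all 34721 tested, 1086 and 1923 were called higher in the 24 h comparisons. Calls in either direction numbered 2769, 4153 and 4865 in the 3 comparisons. A member with low counts and uneven libraries, such as that of rank 21, may go uncalled with 3 libraries per time.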
